A study of Mus musculus with 14 samples.

Results

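The CXC chemokine ligands described here are 7 genes chosen by name, Cxcl1, Cxcl2, Cxcl3, Cxcl9, Cxcl10, Cxcl11 and Cxcl16, out of 53278 genes in the count and TPM (transcripts per 1000000) tables, and all 7 were found in both. Chemokines are small secreted proteins that recruit leukocytes along a concentration gradient. Cxcl1, Cxcl2 and Cxcl3 bind Cxcr2 and are known for attracting neutrophils, and their genes are classic targets of NF-kB, the transcription factor family that IL-1 family cytokines such as IL-33 activate. Cxcl9, Cxcl10 and Cxcl11 bind Cxcr3 on T and NK cells and are classic interferon-induced genes, while Cxcl16 is made as a membrane-bound protein, is released by shedding and binds Cxcr6.

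The RNA came from group 2 innate lymphoid cells (ILC2s), tissue-resident lymphocytes that respond to the alarmins IL-33 and IL-25, sorted from mouse lung as live, lineage-, CD90.2+, CD3- cells. In the stimulation experiment, cells of B6 mice were kept in complete RPMI culture without stimulation (4 libraries) or given 20 ng/mL IL-33 for 24 hours (4 libraries); the methods describe both as cultures, although the study's results text speaks of ex vivo cells for the unstimulated group. In the Blimp-1 experiment, cells with the genotype label ControlIL7RaCre (Control, 3 libraries) and cells lacking Blimp-1, Blimp-1IL7RaCre (3 libraries), were all cultured with 20 ng/mL IL-33 and 20 ng/mL IL-25 for 72 hours. The sequencing methods add IL-2 to this culture, which the labels do not name. The general culture methods put 20 ng/mL IL-2 in the medium of cultured ILC2s. Whether the cultures of the stimulation experiment held IL-2 was therefore not settled. Blimp-1 is a transcriptional repressor encoded by Prdm1. A Cre driven from the Il7r locus is active in the common lymphoid lineage, so the deletion is not limited to ILC2s in the mouse. Whether Control mice carried floxed Prdm1 alleles was not given. The mice were over 6 weeks of age, and each library is titled as 1 mouse, whereas the figure captions describe sorted samples that each pooled 2 mice, so what 1 replicate holds was not settled.

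The promoters of the ligands are shown because the members fall into groups by position as well as by receptor. Cxcl3 (ENSMUSG00000029379.10, chr5:90786103-90789600), Cxcl1 (ENSMUSG00000029380.11, chr5:90891241-90893115) and Cxcl2 (ENSMUSG00000058427.10, chr5:90903871-90905938) lie on the plus strand of chromosome 5 in GRCm38. Cxcl9 (ENSMUSG00000029417.9, chr5:92321347-92328079), Cxcl10 (ENSMUSG00000034855.13, chr5:92346638-92348889) and Cxcl11 (ENSMUSG00000060183.6, chr5:92359544-92365485) lie together on its minus strand. Cxcl16 (ENSMUSG00000018920.11, chr11:70453983-70459984) lies on the minus strand of chromosome 11. Cxcl11 is annotated as a polymorphic pseudogene, because the B6 reference carries a disrupted reading frame, so its counts are RNA and need not stand for protein. RefSeq promoters (GRCm38.p6) were matched for 5 of the 7 members, and the 250 bases before the RefSeq start are printed 5′ to 3′ on the strand of the gene. They run from chr5:90890995-90891244 (Cxcl1, plus strand), chr5:90903649-90903898 (Cxcl2, plus strand) and chr5:90785851-90786100 (Cxcl3, plus strand) to chr5:92328080-92328329 (Cxcl9, minus strand) and chr5:92348890-92349139 (Cxcl10, minus strand). Capitals mark matches on either strand to the kB forms GGGANNTTC and GGGANTTCC, sites of NF-kB, or to GAAANNGAA, a core of interferon response elements.
Cxcl1: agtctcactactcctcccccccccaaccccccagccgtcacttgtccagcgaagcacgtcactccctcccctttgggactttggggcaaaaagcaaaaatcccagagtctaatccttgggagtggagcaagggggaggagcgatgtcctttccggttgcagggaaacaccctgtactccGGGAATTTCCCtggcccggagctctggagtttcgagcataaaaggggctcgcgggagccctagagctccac
Cxcl2: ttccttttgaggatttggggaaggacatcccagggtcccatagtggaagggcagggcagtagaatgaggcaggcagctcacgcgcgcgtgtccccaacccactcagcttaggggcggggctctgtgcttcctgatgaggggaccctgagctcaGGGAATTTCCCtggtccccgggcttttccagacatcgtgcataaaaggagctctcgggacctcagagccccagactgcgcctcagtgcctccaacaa
Cxcl3: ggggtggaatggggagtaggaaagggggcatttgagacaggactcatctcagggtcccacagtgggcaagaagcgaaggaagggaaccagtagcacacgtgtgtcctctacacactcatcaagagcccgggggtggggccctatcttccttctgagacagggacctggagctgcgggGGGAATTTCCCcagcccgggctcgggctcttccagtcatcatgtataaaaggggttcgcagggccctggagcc
Cxcl9: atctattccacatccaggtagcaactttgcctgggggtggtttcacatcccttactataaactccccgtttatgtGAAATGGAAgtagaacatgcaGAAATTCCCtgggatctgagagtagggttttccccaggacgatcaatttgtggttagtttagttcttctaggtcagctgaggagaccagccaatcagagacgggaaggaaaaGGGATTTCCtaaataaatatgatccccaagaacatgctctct
Cxcl10: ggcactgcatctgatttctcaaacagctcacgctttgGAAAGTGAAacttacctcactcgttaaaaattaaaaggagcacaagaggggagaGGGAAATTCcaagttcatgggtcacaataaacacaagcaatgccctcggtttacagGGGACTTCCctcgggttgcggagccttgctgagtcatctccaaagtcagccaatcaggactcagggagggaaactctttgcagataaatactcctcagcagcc

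The neutrophil-attracting ligands each carried the same 11-base run, GGGAATTTCCC, in which GGGANNTTC matches on both strands with overlapping letters. It ended 61 bases before the RefSeq start of Cxcl1, 87 bases before that of Cxcl2 and 63 bases before that of Cxcl3. The gene coordinates printed above are those of GENCODE, and the windows of Cxcl1 and Cxcl2 reach past those starts. The distances therefore depend on the start used. This run was present in 14 of 32851 promoters of the same length (0.0426%), and the long kB form GGGANNTTC in 3.23% of them. The promoters of Cxcl9 and Cxcl10 each held 1 match to GGGANNTTC, 1 to the short form GGGANTTCC (1.43% of promoters) and 1 to GAAANNGAA (7.13%). No GAAANNGAA was found in the windows of Cxcl1, Cxcl2 and Cxcl3. None of the 5 windows held TTCNNNGAA (7.02% of promoters), the letters of the gamma-activated site, or AGNGAAAG (7.3%), used here for the Blimp-1 core. A match describes letters in a window and shows no binding, and a missing match says only that the letters are not in these 250 bases.

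**Figure D1:**
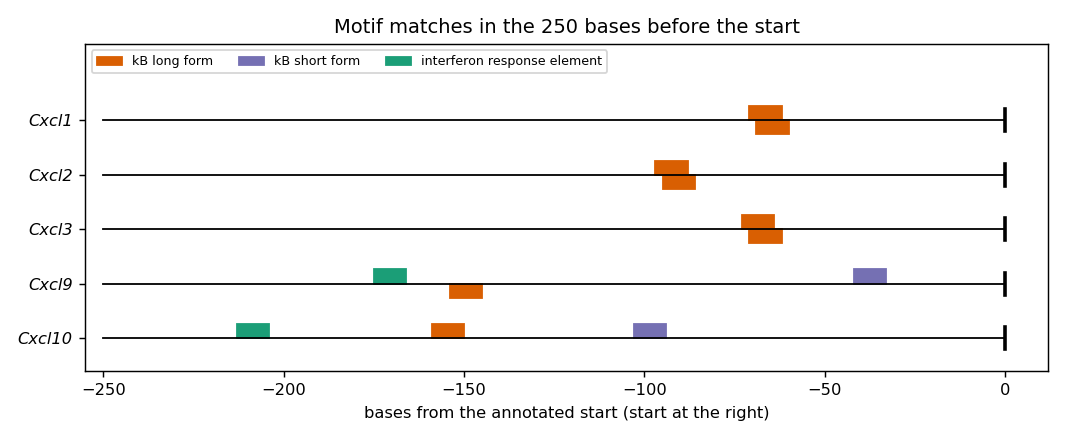
Positions of motif matches in the 250 bases before the RefSeq start of 5 CXC ligand genes, in bases from that start, which is at the right. Boxes above a line are matches on the strand of the gene and boxes below it on the opposite strand; the paired boxes of Cxcl1, Cxcl2 and Cxcl3 are the shared 11-base run, and only Cxcl9 and Cxcl10 of these 5 have a GAAANNGAA box.

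Libraries held 10470125 to 32849428 counts in the stimulation experiment and 13570188 to 76448945 in the Blimp-1 experiment. All 14 ILC2 markers were detected in every group. Their levels summed to 9369 to 10174 CPM (counts per 1000000 of library size, scaled by edgeR's TMM factors) unstimulated and 6809 to 9034 with IL-33. In the Blimp-1 experiment they summed to 6713 to 8019 CPM in Control and 6230 to 6493.5 CPM in Blimp-1-deficient libraries. Both comparisons separated, with the lower sums in IL-33 and in Blimp-1-deficient libraries. Single markers went both ways with IL-33, as with Thy1 (log2 fold change -2.52) and Areg (3.36). Prdm1 stood at 73.9 to 92.7 CPM in Control and 11.4 to 14.6 CPM in Blimp-1-deficient libraries, a log2 fold change of -2.68 (adjusted p = 0.00441). Control replicate 2 stood apart: 76.8% of its counts, and 93.9% of its TPM, lay in 7 loci, against at most 4.12% of the counts of any other library. The largest of these loci was CT010467.1 with 41.6% of the counts, and the mitochondrial ribosomal RNA gene mt-Rnr2 held 1.14%. The effective size of Control replicate 2 was 4107890 counts, so 3 counts, the limit that a count of 0 allows, corresponded to 0.730 CPM there and to 0.0310 to 0.0387 CPM in the other 5 libraries. IL-33 replicate 3 had the fewest counts of its experiment, with a limit of 0.295 CPM. Results are given with and without these libraries, and count limits and intervals cover counting error only, since the reads carried no molecular identifiers.

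Cxcl3 made up most of the TPM of the 7 members in each group. Levels between genes are compared in TPM, which accounts for gene length, without the libraries that stood apart. Cxcl3 averaged 71.0 TPM in unstimulated, 981 in IL-33, 125 in Control and 160 in Blimp-1-deficient libraries, or 86.7%, 67.9%, 84.7% and 66.4% of the TPM of the 7 members. What took the remaining share differed between the experiments. In IL-33 libraries Cxcl2 was next with 392 TPM (27.1%) and Cxcl10 followed with 54.9 TPM (3.80%). In Blimp-1-deficient libraries Cxcl10 was next with 54.0 TPM (22.4%) and Cxcl2 followed with 17.2 TPM. Neither pair overlapped between libraries. In Control libraries Cxcl10 (9.85 TPM) and Cxcl2 (9.50 TPM) overlapped. In unstimulated libraries Cxcl2 (4.71 TPM), Cxcl16 (3.15 TPM) and Cxcl10 (2.09 TPM) each overlapped the next in order, as Cxcl10 did with Cxcl1 (0.818 TPM). Cxcl11 was lowest in each group, at 0.0174 TPM in Control and 0.2495 TPM in Blimp-1-deficient libraries, and it overlapped Cxcl9 in unstimulated cells. Cxcl1 and Cxcl9 overlapped in Control and in Blimp-1-deficient libraries (1.92 and 2.03 TPM in the latter), and Cxcl16 and Cxcl9 in IL-33 libraries (3.28 and 1.91 TPM). The experiments were normalized separately and differ in mice, stimulus and time, so levels between them are given side by side and were not tested.

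The comparison of IL-33 with unstimulated cells asks which transcripts the alarmin changes within a day. Of the 6 members that passed the filter on low counts, 5 were called higher in edgeR's quasi-likelihood test and their groups did not overlap, against 16.2% of all tested genes called higher, 16.1% called lower and 17.0% higher without overlap. Cxcl9, with 6 counts in unstimulated and 211 in IL-33 libraries, passed the filter only through the latter. It could thus be called higher but not lower. The balance of calls over all genes moved from 2508 higher and 2484 lower to 1793 and 3694 with scaling by library size alone. It moved to 1032 and 4655 with limma on log2(TPM + 1), where the test and the filter differ as well. The same 5 members were called in each. Without IL-33 replicate 3 the same 5 were called, against 27.5% higher, 29.7% lower and 28.5% higher without overlap.

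Among the neutrophil-attracting ligands, Cxcl2 showed the largest fitted fold change of the members. It stood at 1.77, 2.32, 3.10 and 3.96 CPM in unstimulated replicates 1 to 4, and at 247, 251, 245 and 375 CPM in IL-33 replicates 1 to 4. The lowest IL-33 library was thus far above the highest unstimulated one, and replicate 4 was the highest. The log2 fold change of Cxcl2 was 6.65 (SE 0.31, adjusted p = 8.86e-06), and 6.71 without IL-33 replicate 3 (adjusted p = 3.43e-08). Cxcl3, the most abundant, stood at 73.5, 56.0, 75.01 and 82.0 CPM in unstimulated and at 1135, 1099.6, 936 and 1450.0 CPM in IL-33 libraries. Again the groups were well separated, and replicate 4 was the highest. Cxcl3 had a fitted log2 fold change of 4.01 (SE 0.18, adjusted p = 8.28e-06; 4.10 without replicate 3, adjusted p = 2.79e-08). Cxcl1 was scarce before stimulation, at 0.485, 0.314, 0.212 and 0.755 CPM, and reached 9.51, 5.21, 6.20 and 8.09 CPM with IL-33. Its fold change, 4.02 on the log2 scale (SE 0.45, adjusted p = 0.000377; 4.07 without replicate 3, adjusted p = 6.13e-06), was close to that of Cxcl3 at a far lower level.

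Of the interferon-induced ligands, Cxcl9 and Cxcl10 rose and Cxcl11 was not tested in the fit. Cxcl10, which attracts Cxcr3+ cells, stood at 1.39, 0.686, 1.57 and 1.79 CPM in unstimulated and at 47.7, 64.9, 45.6 and 18.0 CPM in IL-33 libraries. The groups did not overlap, and here IL-33 replicate 4 was the lowest of its group. Cxcl10 had a fitted log2 fold change of 5.02 (SE 0.48, adjusted p = 0.000191) and 5.02 without replicate 3 (adjusted p = 7.46e-06). Cxcl9 stood at 0.139, 0, 0.0424 and 0.0315 CPM in unstimulated and at 3.44, 1.88, 2.66 and 0.742 CPM in IL-33 libraries. The unstimulated libraries held 6 counts of Cxcl9 between them and the IL-33 libraries 211, a ratio of 42.0 per effective count with a 95% exact interval of 19.0 to 116. The fitted log2 fold change was 5.28 (SE 0.85, adjusted p = 0.00227; 5.21 without replicate 3, adjusted p = 0.000210). Cxcl11 did not pass the filter. Its counts were 2, 0, 0 and 4 in unstimulated and 9, 5, 19 and 0 in IL-33 libraries, so the groups overlapped. Two-sided exact permutation of CPM gave p = 0.171 for Cxcl11 (n = 4 against 4, smallest possible 0.0286). The pooled count ratio of Cxcl11 was 6.56 (2.72 to 19.2) with all libraries and 3.10 (1.12 to 9.84) without IL-33 replicate 3, which held 19 of its 33 counts.

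Cxcl16 was the member that passed the filter and was not called. It stood at 2.29, 2.74, 3.90 and 2.01 CPM in unstimulated and at 3.81, 3.65, 4.33 and 3.11 CPM in IL-33 libraries. The groups overlapped, with a log2 fold change of 0.44 (SE 0.26, adjusted p = 0.223) and 0.37 without replicate 3 (adjusted p = 0.199).

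**Figure D2:**
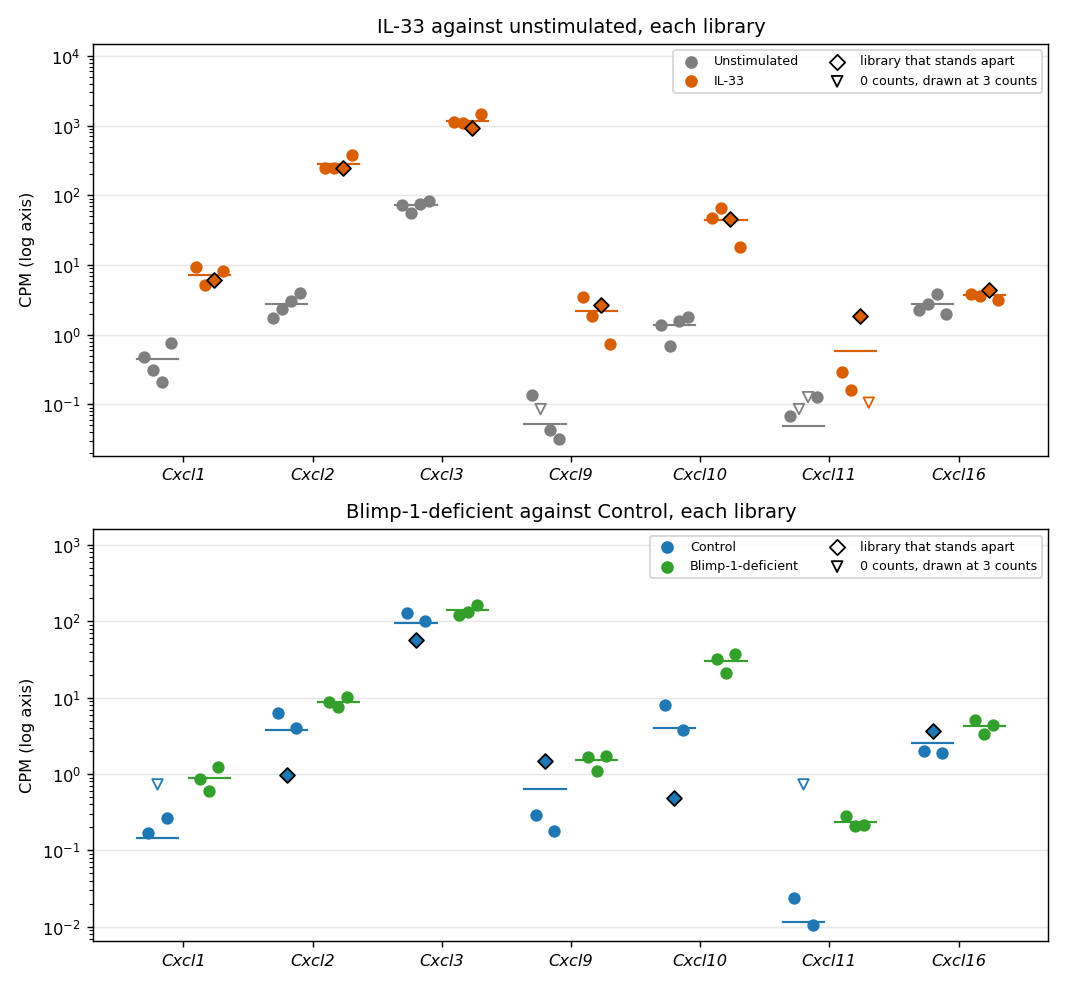
CPM of the 7 ligands in each library on a log axis, IL-33 against unstimulated above and Blimp-1-deficient against Control below; points are libraries, bars are group means, diamonds are IL-33 replicate 3 and Control replicate 2, and triangles are libraries with 0 counts drawn at the level of 3 counts. Cxcl1, Cxcl2, Cxcl3, Cxcl9 and Cxcl10 are separated by IL-33, and in the lower panel the Control diamond lies apart from the other Controls for most members.

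IL-33 replicate 4 was extreme for most members. It had the highest level of Cxcl2 and Cxcl3 among the IL-33 libraries, the lowest of Cxcl9 and Cxcl10, and 0 counts of Cxcl11, while its Cxcl1 (8.09 CPM) lay within the range of the others. Ifng, which encodes interferon gamma, stood at 5.18, 11.7, 6.29 and 1.24 CPM in IL-33 replicates 1 to 4, against 0.172 to 0.971 CPM in unstimulated libraries. Iigp1, an interferon-induced GTPase, stood at 178, 129, 170.0 and 10.9 CPM, so that replicate 4 fell within the unstimulated range of 3.77 to 22.1 CPM. Ifit1, another interferon-induced gene, behaved alike, with 1.06 CPM in replicate 4 against 9.93 to 29.7 CPM in the other IL-33 libraries and 1.06 to 3.05 CPM in unstimulated ones. Over 30 interferon-response genes, none of them a member, the mean log2 level was 3.91 in replicate 4, 5.27 to 6.02 in the other IL-33 libraries and 4.11 to 5.03 in unstimulated ones. Over 25 NF-kB response genes it was 5.88 in replicate 4, 5.43 to 5.87 in the other IL-33 libraries and 4.29 to 4.53 in unstimulated ones. In this library, with interferon-response genes below all unstimulated libraries on average, Cxcl10 at 18.0 CPM was still above the unstimulated maximum of 1.79 CPM, and Cxcl9 at 0.742 CPM above 0.139 CPM. These genes were singled out after their values were seen, and their part in the level of the ligands was not tested.

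Comparing ligands within a library removes the library size from the comparison. For every 100 counts of Cxcl3, Cxcl2 gave 2.40 to 4.84 counts in unstimulated and 21.8 to 26.2 counts in IL-33 libraries, without overlap. Cxcl1 gave 0.283 to 0.921 and 0.474 to 0.838 counts, which overlapped. Cxcl10 gave 1.89, 1.23, 2.09 and 2.19 counts per 100 of Cxcl3 in unstimulated and 4.20, 5.91, 4.87 and 1.24 in IL-33 libraries, and replicate 4 alone kept the groups from separating. Against Cxcl2, Cxcl10 went the other way, from 29.6 to 78.4 counts per 100 in unstimulated to 4.80 to 25.9 in IL-33 libraries. The mean log2(CPM + 0.5) of the neutrophil-attracting minus that of the interferon-induced ligands was 2.64, 2.92, 2.81 and 3.08 in unstimulated and 4.73, 4.64, 4.04 and 6.21 in IL-33 libraries, a difference of 2.04. The fitted log2 fold changes of the classes overlapped (4.01 to 6.65 against 5.02 to 5.28), and the pseudocount shortens the change of the scarce Cxcl9 and Cxcl11. With raw counts of Cxcl3 over Cxcl10 the difference turned to -0.96, and with Cxcl2 over Cxcl10 it was 1.73, so its sign depended on the ligands compared.

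The comparison of Blimp-1-deficient with Control cells asks which transcripts the repressor holds down under continued alarmin exposure. In the fit of all 6 libraries each of the 7 members had a positive log2 fold change and 0 were called in edgeR's quasi-likelihood test, against 0.450% of tested genes called higher and 0.306% called lower. At an unadjusted p under 0.05 there were 4 higher (Cxcl1, Cxcl10, Cxcl11 and Cxcl16), against 6.17% of tested genes. DESeq2 called 1 of 7 (Cxcl10), against 1.84% called higher of the 30196 genes with any count, a wider set than the 17335 that passed edgeR's filter. Limma with voom sample weights called 6, against 7.47%, and limma on log2(TPM + 1) called 0 of the 6 it tested, against 0.00717%. Without Control replicate 2, 5 of 7 were called higher (Cxcl1, Cxcl9, Cxcl10, Cxcl11 and Cxcl16), against 8.25% of tested genes called higher and 5.72% called lower. Cxcl11, with 3 counts in Control and 60 in Blimp-1-deficient libraries, passed the filter only through the latter. It could thus be called higher but not lower. Every Blimp-1-deficient library was above every Control library for 4 of 7 members (Cxcl1, Cxcl2, Cxcl10 and Cxcl11), against 11.8% of genes higher in this way, and without Control replicate 2 for 6 of 7, all but Cxcl3, against 24.3%. For Cxcl1 and Cxcl11 Control replicate 2 held 0 counts, with a limit of 0.730 CPM. That limit lies above the Blimp-1-deficient maximum of Cxcl11 (0.278 CPM) and minimum of Cxcl1 (0.606 CPM), so this library cannot show the separation.

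Cxcl10 was the most abundant of the interferon-induced ligands. It stood at 7.94, 0.487 and 3.73 CPM in Control replicates 1 to 3 and at 32.3, 20.9 and 37.0 CPM in Blimp-1-deficient replicates 1 to 3. All Control libraries lay below all Blimp-1-deficient ones, and Control replicate 2 was the lowest with 2 counts. The log2 fold change of Cxcl10 was 2.68 (SE 0.62, adjusted p = 0.138) and 2.38 without Control replicate 2 (SE 0.36, adjusted p = 0.00791). Cxcl9 stood at 0.289, 1.46 and 0.179 CPM in Control and at 1.69, 1.11 and 1.74 CPM in Blimp-1-deficient libraries. Control replicate 2, whose value rests on 6 counts, fell among the Blimp-1-deficient libraries, and the other Controls lay below them. For Cxcl9 the fitted value was 1.79 on the log2 scale (SE 0.80, adjusted p = 0.451), and 2.70 without that library (SE 0.35, adjusted p = 0.00460). Cxcl11 gave 2, 0 and 1 counts in Control and 23, 16 and 21 counts in Blimp-1-deficient libraries. The pooled ratio of Cxcl11 without Control replicate 2 was 13.8 with a 95% exact interval of 4.51 to 68.9, and its fitted log2 fold change 3.69 (SE 0.62, adjusted p = 0.0111; 3.70 with all libraries, adjusted p = 0.0724).

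The neutrophil-attracting ligands had smaller fitted fold changes without Control replicate 2. Cxcl3 stood at 128, 56.7 and 101 CPM in Control and at 121, 134 and 166 CPM in Blimp-1-deficient libraries, and the groups overlapped. Its log2 fold change was 0.54 (SE 0.29, adjusted p = 0.555), or 0.29 without Control replicate 2 (SE 0.15, adjusted p = 0.223). Cxcl2 stood at 6.29, 0.974 and 4.01 CPM in Control and at 8.67, 7.59 and 10.3 CPM in Blimp-1-deficient libraries. These groups did not overlap, yet Cxcl2 was not called, with a log2 fold change of 1.12 (SE 0.50, adjusted p = 0.452) and 0.79 without Control replicate 2 (SE 0.22, adjusted p = 0.0540). Cxcl1 stood at 0.169, 0 and 0.264 CPM in Control and at 0.857, 0.606 and 1.22 CPM in Blimp-1-deficient libraries. Cxcl1 was the one ligand of its class to be called without Control replicate 2, at a log2 fold change of 2.05 (SE 0.41, adjusted p = 0.0198), against 2.21 with all libraries (SE 0.58, adjusted p = 0.198).

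Cxcl16, the membrane-bound ligand, stood at 2.01, 3.65 and 1.90 CPM in Control and at 5.06, 3.36 and 4.35 CPM in Blimp-1-deficient libraries. Control replicate 2, with 15 counts, overlapped the Blimp-1-deficient group. The log2 fold change of Cxcl16 was 0.84 (SE 0.32, adjusted p = 0.375), and 1.13 without that library (SE 0.21, adjusted p = 0.0149). Zmynd15, on the opposite strand, overlaps 18.3% of the exon bases of Cxcl16, and it differed by 0.91 on the log2 scale with all libraries (adjusted p = 0.718) and by 1.58 without Control replicate 2 (adjusted p = 0.0422). The library kit does not mark strand and the counting of reads over overlapping genes was not given, so the part of Zmynd15 in the counts of Cxcl16 was not tested. Art3 overlaps 5.91% of the exon bases of Cxcl10, and Gm2673, which had 0 counts in all 14 libraries, overlaps 41.7% of those of Cxcl11. Cxcl2 and Cxcl3 share 101 stretches of 75 bases, 4.57% of the stretches of Cxcl2, where a single read cannot be assigned to 1 gene without its mate.

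Control replicate 2 did not shift the members in 1 direction. At the mean level of the other Controls it would have held 24.0 counts of Cxcl10, and it held 2 (95% exact Poisson interval 0.242 to 7.22). It would have held 21.2 counts of Cxcl2 and held 4, and 471 of Cxcl3 and held 233. For Cxcl9 the reverse was seen, with 6 counts (2.20 to 13.1) where 0.963 were expected, and for Cxcl16 with 15 (8.40 to 24.7) where 8.04 were expected. For Cxcl1 and Cxcl11 fewer than 1 count was expected and 0 were found, so this library carried little information on them.

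**Figure D3:**
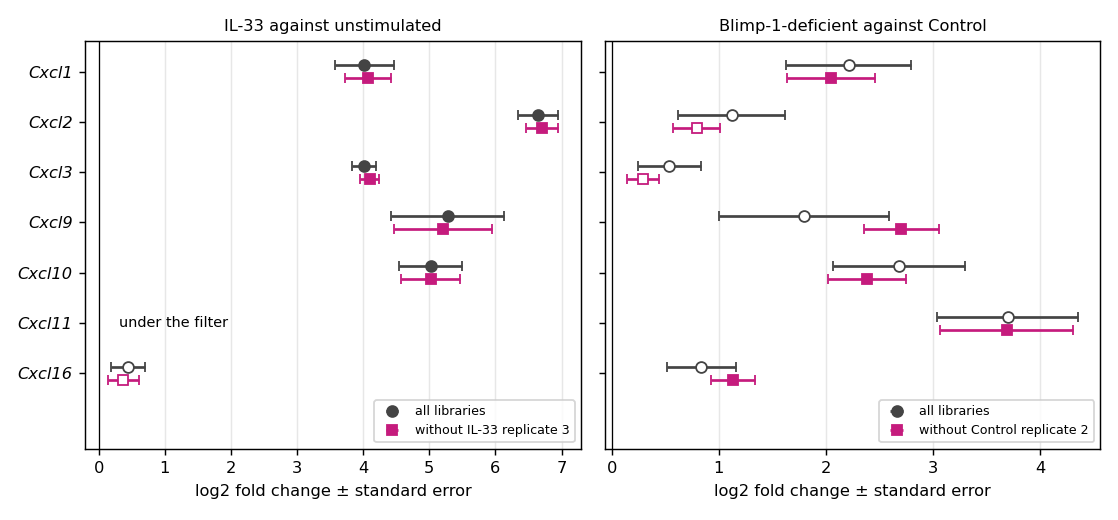
Fitted log2 fold change of each ligand with its standard error for IL-33 against unstimulated (left) and Blimp-1-deficient against Control (right), with all libraries (circles) and without the library that stood apart (squares); filled symbols passed an adjusted p of 0.05. On the left 5 members are filled under both fits, and on the right the filled ones appear without Control replicate 2, with Cxcl9, Cxcl10 and Cxcl11 to the right of Cxcl1, Cxcl2 and Cxcl3.

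The classes were set against each other within libraries. For every 100 counts of Cxcl3, Cxcl10 gave 6.20, 0.858 and 3.68 counts in Control and 26.8, 15.7 and 22.4 counts in Blimp-1-deficient libraries. The groups did not overlap, with a wide interval of 0.103 to 3.14 in Control replicate 2. Cxcl2 gave 4.91, 1.72 and 3.96 counts in Control and 7.19, 5.68 and 6.22 counts in Blimp-1-deficient libraries, which did not overlap either. Cxcl1 gave 0.132, 0 and 0.261 counts in Control and 0.453 to 0.737 in Blimp-1-deficient libraries. Against 100 counts of Cxcl2, Cxcl10 gave 126 and 92.9 counts in Controls 1 and 3 and 276 to 373 in Blimp-1-deficient libraries, while Control replicate 2 held 2 counts of Cxcl10 and 4 of Cxcl2. The mean log2(CPM + 0.5) of the neutrophil-attracting minus the interferon-induced ligands was 2.46, 1.82 and 2.63 in Control and 1.58, 1.87 and 1.89 in Blimp-1-deficient libraries, a difference of -0.52, or -0.76 without Control replicate 2. The Control and Blimp-1-deficient libraries overlapped in that measure through Control replicate 2. Without that library the fitted log2 fold changes were 2.38 to 3.69 for the interferon-induced and 0.29 to 2.05 for the neutrophil-attracting ligands, and with it 1.79 to 3.70 and 0.54 to 2.21. The difference between classes was not tested, since the members were chosen by name with results known.

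**Figure D4:**
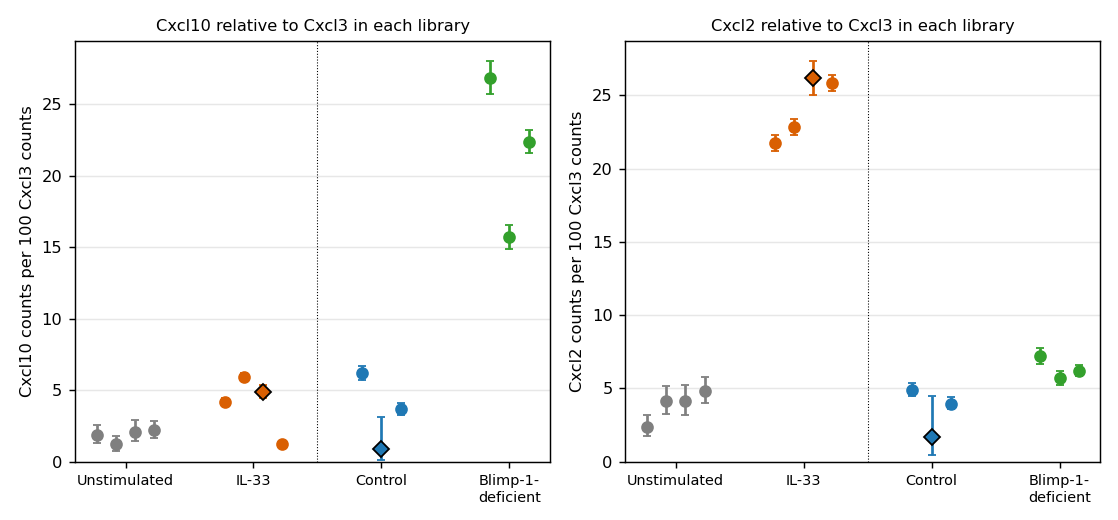
Counts of Cxcl10 (left) and of Cxcl2 (right) for every 100 counts of Cxcl3 in each library of the 4 groups; bars are 95% exact binomial intervals and diamonds are IL-33 replicate 3 and Control replicate 2. Cxcl10 relative to Cxcl3 reaches 15.7 to 26.8 in Blimp-1-deficient libraries, while Cxcl2 relative to Cxcl3 reaches 21.8 to 26.2 in IL-33 libraries and 5.68 to 7.19 in Blimp-1-deficient ones.

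The remaining genes of the pathway were counted from lists of ligands, receptors, inducers and responding genes. Of 8 other CXC ligands, 3 were tested with IL-33. Cxcl5, a further Cxcr2 ligand, rose from 4.56 ± 2.82 to 36.9 ± 16.3 CPM (SD, n = 4; log2 fold change 3.02, adjusted p = 0.0101), and Cxcl12, the ligand of Cxcr4, fell from 64.0 ± 13.2 to 37.6 ± 2.00 CPM (SD, n = 4; log2 fold change -0.77, adjusted p = 0.00384). Cxcl14, the third, turned from 0.99 (adjusted p = 0.623) with all libraries to -2.95 without IL-33 replicate 3 (adjusted p = 0.00484, called lower), with 11.2 CPM in that library and a mean of 0.182 CPM in the other 3. Between Blimp-1-deficient and Control cells Cxcl5 differed by 1.60 with all libraries (adjusted p = 0.113) and by 1.42 without Control replicate 2 (adjusted p = 0.0129), when it was the 1 of 6 tested that was called, against 8.25% of all genes called higher and 5.72% lower.

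Of the 8 receptors, 5 were tested. With IL-33, 3 fell, against 16.1% of all genes called lower, namely Cxcr5 (-1.32, adjusted p = 0.00838), Cxcr4 (-0.99, adjusted p = 0.0144) and Cxcr3 (-1.48, adjusted p = 0.0458). The call of Cxcr3 was lost without any 1 of 7 libraries (adjusted p = 0.0940 to 0.153), all but IL-33 replicate 3, and that of Cxcr4 without unstimulated replicate 1 (adjusted p = 0.0701) or 2 (adjusted p = 0.0638). Cxcr6, the receptor of Cxcl16, was abundant at 738 ± 35.5 CPM unstimulated and 772 ± 82.6 CPM with IL-33 (SD, n = 4). Its log2 fold change was 0.07 (adjusted p = 0.610). That value was negative under scaling by library size alone and on TPM, where the median over all genes was negative too (-0.10, and -0.25 and -0.29). Cxcr2, the receptor of the neutrophil-attracting ligands, was near 0 in all groups (mean 0 CPM in IL-33 libraries and 0.0155 to 0.176 CPM in the other groups). In Blimp-1-deficient cells Cxcr5 (1.28, adjusted p = 0.459) and Cxcr4 (0.99, adjusted p = 0.288) were called higher only without Control replicate 2 (1.98, adjusted p = 0.00568, and 0.75, adjusted p = 0.0197), against 8.25% of all genes.

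Of 16 inducers and receptors, 15 were tested with IL-33, and 2 rose and 5 fell, against 16.2% and 16.1% of all genes tested. Without IL-33 replicate 3, 5 rose and 6 fell, against 27.5% and 29.7%. Tnf rose from 11.1 ± 1.02 to 82.7 ± 11.7 CPM (SD, n = 4; log2 fold change 2.89, adjusted p = 6.60e-06) and Ifng rose by 3.51 (adjusted p = 0.00923, or 0.0522 with the replicate block). Among those that fell were Il17rb (-3.07), a receptor chain for IL-25, and Ifngr1 (-1.66), a chain of the interferon gamma receptor. Il1rl1, the IL-33 receptor, also fell, with -0.87. In Blimp-1-deficient cells Tnf was the 1 called with all libraries. It stood at 19.2, 15.1 and 19.6 CPM in Control and at 82.0, 84.2 and 80.6 CPM in Blimp-1-deficient libraries, so the groups were far apart and Control replicate 2 lay near the others. Tnf differed by 2.17 on the log2 scale (adjusted p = 0.00441). Leaving out Blimp-1-deficient replicate 1, 2 or 3 took its adjusted p to 0.0636, 0.05005 or 0.0656, above the threshold, and without Control replicate 2 it was 2.79e-05. Ifng had 0.374, 0 and 0.137 CPM in Control and 1.12, 1.19 and 0.755 CPM in Blimp-1-deficient libraries, which did not overlap. Its log2 fold change was 2.19 (adjusted p = 0.238), and 2.01 without Control replicate 2 (adjusted p = 0.0310), when 8 of the 15 were called higher and 2 lower, against 8.25% and 5.72% of all genes.

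Of 30 interferon-response genes, 28 were tested with IL-33 and 6 rose, against 16.2% of all genes tested, with a median log2 fold change of 0.48 against 0.06 over all genes tested. Ido1, which encodes a tryptophan-degrading enzyme, rose by 5.54 (adjusted p = 0.00307), while Irf1, a transcription factor of the pathway, had 0.50 (adjusted p = 0.359). Rsad2 (3.60, adjusted p = 0.0498), Iigp1 (3.52, adjusted p = 0.0168) and Ifit1 (3.04, adjusted p = 0.0289) were called with all libraries, but each lost its call when some single libraries were left out and under the replicate block, which left 3 of the list called. Without IL-33 replicate 3, 10 of 28 were called higher, against 27.5% of all genes. Between Blimp-1-deficient and Control cells, Irf9 was the 1 of 30 called with all libraries (0.88, adjusted p = 0.0398), a call lost without any 1 library other than Control replicate 2 (adjusted p = 0.143 to 0.276). Without Control replicate 2, 21 of the 30 were called higher, against 8.25% of all genes. The median of the list was 0.85 with all libraries and 0.79 without it, against -0.02 and 0.01 over all genes tested. The highest of these were Oasl2 (3.30), Rsad2 (3.03), Ifit1 (2.80) and Ifit3 (2.31), all antiviral genes.

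Of 25 NF-kB response genes, 23 were tested with IL-33 and 16 rose, against 16.2% of all genes tested, with a median of 1.25. Csf2 (5.88) and Il6 (4.70), which encode cytokines, and Tnfaip3 (3.10), which encodes a feedback inhibitor of NF-kB, were among them. Without IL-33 replicate 3, Relb (0.80) and Bcl3 (0.49) were also called higher. Nfkb1 (-0.14), Rela (-0.32) and Birc2 (-0.28) were then called lower, against 27.5% of all genes higher and 29.7% lower. Between Blimp-1-deficient and Control cells the median of 24 tested was 0.48 with all libraries, where Csf2 (adjusted p = 0.196) and Il6 (adjusted p = 0.127) were not called. Without Control replicate 2, 12 of the 24 were called higher and 2 lower, against 8.25% and 5.72% of all genes, with a median of 0.40. Csf2 then had 1.21 and Il6 1.05, while Ccl4, a CC chemokine, had -1.66. Of 11 factors of mRNA decay and ligand shedding, 4 fell with IL-33 and 1 rose, against 16.1% and 16.2% of all genes tested. Zfp36l1 (-1.16) and Zfp36l2 (-0.93), which promote decay of cytokine mRNAs, were among those that fell. Without IL-33 replicate 3, Zfp36 (-0.22, adjusted p = 0.0160) and Rc3h1 (-0.16, adjusted p = 0.0282) were also called lower. Adam17 (0.26, adjusted p = 0.00128) was then also called higher, against 29.7% of all genes lower and 27.5% higher. Without Control replicate 2, Blimp-1-deficient cells had a log2 fold change of -1.11 for Zfp36 (adjusted p = 0.00159), which encodes tristetraprolin, a decay factor of Cxcl and Tnf mRNAs, and 0.75 for Zfp36l1. On TPM, in fits that kept Control replicate 2, Zfp36 had 0.25 and 0.35. The median over all genes tested was 1.28 and 1.69 in those fits.

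Levels of other cell types in the sort were read from marker lists, since macrophages, stromal cells and neutrophils also make these ligands. In bulk RNA, fewer cells of a type and less RNA per cell cannot be told apart. The 15 macrophage and dendritic cell markers summed to 129 to 268 CPM unstimulated, 90.0 to 184 with IL-33, 65.9 to 178 in Control and 53.3 to 151 in Blimp-1-deficient libraries, overlapping in both comparisons. No marker of this list was at 0 in all libraries of a group, though C1qa, C1qb, C1qc and Fcgr1, among others, were at 0 in some libraries. Of the 14 of these tested without Control replicate 2, 4 were called higher, namely Adgre1 (1.87) and the complement genes C1qa (3.80), C1qb (4.34) and C1qc (3.74), and Xcr1 was called lower (-0.83), against 8.25% and 5.72% of all genes. With all libraries none of these was called and the complement genes had the opposite sign, at -1.01 (adjusted p = 0.898), -1.68 (adjusted p = 0.816) and -0.57 (adjusted p = 0.952). Control replicate 2 held their highest levels, at 9.74, 8.03 and 4.14 CPM. The mean of C1qa was 1.38 CPM with Blimp-1 deleted against 0.095 CPM in the 2 remaining Controls, and that of Lyz2, the highest of the list, 48.4 against 53.7 CPM. The 12 fibroblast and endothelial markers summed to 446 to 809 CPM unstimulated and 295 to 549 with IL-33. In Control they summed to 229, 4106 and 346 CPM in replicates 1 to 3, with Col1a1 at 2170.0 CPM in replicate 2, and in Blimp-1-deficient libraries to 517 to 762 CPM, above Controls 1 and 3. No marker of this list was at 0 in all libraries of a group, and Cldn5 was at 0 in 1 or more Control libraries. The 10 neutrophil markers were low, at 0.409 to 2.20 CPM unstimulated, 0.712 to 5.90 with IL-33, 1.70 to 2.06 in Control and 3.32 to 6.62 in Blimp-1-deficient libraries, with Retnlg at 0 in each group. Mmp8 carried most of the difference in the Blimp-1 experiment, at a mean of 1.04 CPM in Control and 4.30 CPM in Blimp-1-deficient libraries, while the defining marker Ly6g stood at 0.597 and 0.121 CPM. The 12 epithelial markers summed to 57.5 to 90.6 CPM unstimulated and 9.86 to 12.7 with IL-33, and to 13.4 to 21.0 in Control and 17.6 to 35.7 in Blimp-1-deficient libraries. Epcam carried most of the difference with IL-33, at a mean of 59.6 CPM unstimulated and 2.61 CPM with IL-33, and Scgb1a1 reached 18.7 CPM in a single unstimulated library, while Hopx (2.98 and 5.72 CPM) and Cdh1 (0.743 and 1.40 CPM) had higher means with IL-33. T cell, mast cell and NK cell lists were lower with IL-33 as well (46.6 to 72.3 against 189 to 215 CPM for T cells), and the B cell list overlapped between groups in both comparisons. NK cell markers were lower in Blimp-1-deficient (20.2 to 75.7 CPM) than in Control libraries (78.9 to 147 CPM). Gzmb carried most of this list, at a mean of 96.3 CPM in Control, 32.0 in Blimp-1-deficient, 66.3 in unstimulated and 33.4 in IL-33 libraries. Cpa3 carried most of the mast cell list in unstimulated libraries, at a mean of 10.4 CPM. With IL-33, no summed list of another cell type was higher without overlap, but single markers were called higher, namely Lum (2.13, adjusted p = 0.0221) and Pecam1 (0.99, adjusted p = 0.00312) of fibroblasts and endothelium, Hopx (0.94, adjusted p = 0.0107), Cd79b (0.53, adjusted p = 0.0168) and Xcr1 (0.43, adjusted p = 0.00698). Over all genes tested 16.2% were called higher and 16.1% lower. Other markers of these lists were called lower. Among them were Epcam (-4.50, adjusted p = 6.60e-06) and, without IL-33 replicate 3, Col1a1 (-1.90, adjusted p = 6.60e-05). In Blimp-1-deficient libraries the sum of the neutrophil list was higher without overlap, as was that of the fibroblast and endothelial list without Control replicate 2. Without Control replicate 2, 5 of the 12 fibroblast and endothelial markers (Dcn, Pdgfra, Pdgfrb, Lum and Pecam1) and 2 of the 3 tested neutrophil markers (Mmp8 and S100a8) were called higher, and Ly6g lower, again against 8.25% and 5.72% of all genes. Of the epithelial list Krt8 was called higher (3.12, adjusted p = 0.0487) and Hopx lower (-0.89, adjusted p = 0.0118) in that fit. With all libraries none of these was called, and Pdgfrb turned from 1.21 to -1.27 (adjusted p = 0.734). The part of these markers' cells in the ligand levels was not tested in either experiment.

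The genes whose pattern was most like that of a member were found by Pearson correlation of log2(CPM + 0.5) over 13 libraries without Control replicate 2, among 10565 genes. These values describe 4 groups of libraries from 2 experiments and mostly reflect differences between groups. Cxcl2 and Cxcl3 were most like each other (r = 0.993), Cxcl1 was most like Cxcl2 (r = 0.963) and Cxcl9 most like Cxcl10 (r = 0.955). Dnajc16 came next for both Cxcl2 (0.980) and Cxcl3 (0.986), and Max next for Cxcl1 (0.961). Cxcl10 was most like Ripk2 (0.972) and Serpinb6b (0.968), the latter also next for Cxcl9 (0.923). Among the 6 members searched, all but Cxcl11, Cxcl16 was least matched, with Pecam1 (0.851) and Adgrl2 (0.841) closest. Over all 14 libraries Cxcl2 and Cxcl3 gave 0.992, while Cxcl9 and Cxcl10 gave 0.777, Cxcl10 and Ripk2 0.752, Cxcl9 and Serpinb6b 0.574 and Cxcl16 and Pecam1 0.626.

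Genes near the ligands were described in the same fits. Within 150 kb of Cxcl1, Cxcl2 and Cxcl3, the 3 other genes tested with IL-33 were Rassf6 (log2 fold change -0.31), Mthfd2l (0.68) and the chemokine gene Cxcl5 (3.02). Within 150 kb of Cxcl9, Cxcl10 and Cxcl11, 5 other genes had -0.91 to 0.91, with 3 called higher and 1 lower, against 16.2% and 16.1% of all genes tested. Between Blimp-1-deficient and Control cells, with all libraries, 6 other genes near Cxcl9, Cxcl10 and Cxcl11 had -0.13 to 0.17 and 4 near Cxcl1, Cxcl2 and Cxcl3 had -1.32 to 1.60, the highest being Cxcl5. Without Control replicate 2 the ranges were -0.18 to 0.89 for 6 and -1.61 to 4.19 for 6 genes, among them the chemokine genes Cxcl5 (1.42, called higher), Pf4 (0.68) and Ppbp (4.19, adjusted p = 0.164), and Rassf6 was called lower (-1.61), against 8.25% of all genes called higher and 5.72% lower.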

How the data were processed

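RNA of sorted lung ILC2s was sequenced as 75-base paired-end reads with the SMART-seq v4 kit in 14 libraries. The authors trimmed adaptors with cutadapt, aligned reads to GRCm38 with HISAT2 and made raw counts per gene with Subread, and they deposited these counts beside TPM values scaled to 1000000 per library. The processing notes also name Bowtie2, with no role, and mm10. Strand and the treatment of reads over overlapping genes were not given in the sources used here.

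Each experiment was fitted separately with edgeR 4.0.16 (filterByExpr, TMM factors, quasi-likelihood test) in R 4.3.3, with only its groups and no covariates, and p-values were adjusted over all genes tested by the method of Benjamini and Hochberg. Calls used an adjusted p of 0.05. The study's methods used DESeq2 on pairs of groups, which was run as an alternative (DESeq2 1.42.0), as were limma 3.58.1 on log2(TPM + 1) and log2(TPM + 0.1) for genes with a mean of at least 1 TPM, voom with sample weights, other scalings and filters, a replicate block and each library left out. CPM are counts per 1000000 of TMM-scaled library size. Promoter letters, overlaps and neighbours came from RefSeq (GRCm38.p6) and GENCODE annotation. The neighbour window of 150 kb was set with the data at hand. The exact permutation test (SciPy 1.17.1) was used for Cxcl11 with IL-33, the member under the filter. Scripts were tested on simulated counts.

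Depth was 10470125 to 76448945 counts per library. Named genes were all members, up to 4 called genes of each list with the largest change, any receptor or inducer, and the 2 genes most like a member with a mean of at least 5 CPM. Irf1, Zmynd15, Col1a1 and genes given for IL-33 replicate 4 were added after values were seen. Members and lists were chosen with earlier results of these data known. P-values measure the spread between libraries, whose titles name 1 mouse each while captions of the study describe pools of 2.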

Additional observations from a re-analysis of the deposited data

Results flagged for a closer look

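Among 16 tests of single libraries against their group (the 7 members and the class contrast in the groups of 4), 2 lay farther from the rest than Dixon's 95% critical value allows, and chance alone marks about 1 in 20 groups. Cxcl2 in IL-33 replicate 4 stood at 374.7 CPM against 245 to 251 CPM in the other IL-33 libraries (ratio of gap to range 0.953). Cxcl11 in IL-33 replicate 3 stood at 1.87 CPM, which is 19 counts in the library with the fewest counts, against 0 to 0.295 CPM in the others (ratio 0.842).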

How the results depend on the processing

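With IL-33, 5 members were called higher under each alternative run, including the replicate block (5), except for a mean count of at least 50, which left Cxcl9 untested and 4 called. In the Blimp-1 experiment the members called higher numbered 0 with all libraries in edgeR, 0 with the replicate block, 1 with DESeq2 (1.84% of genes higher), 4 with scaling by library size alone (0.565%), 6 with voom sample weights (7.47%) and 6 with DESeq2 without Control replicate 2 (6.46%). The DESeq2 shares are over genes with any count, and the others over genes past the filter. Leaving out 1 library gave 0 to 5, the 5 without Control replicate 2, and leaving out a further library with it gave 2 to 5 (2 without Control replicate 3, 3 without Control replicate 1, with 4.39% and 3.20% of all genes called higher). In those 2 fits the lone Control library is assumed to vary like the Blimp-1-deficient ones.

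The class contrast of the Blimp-1 experiment (-0.52) became -0.022 on TPM and -0.70 on TPM without Control replicate 2, the latter chosen after seeing the data. With raw counts chosen after seeing the data it was -2.97 for Cxcl3 over Cxcl10 and -1.99 for Cxcl2 over Cxcl10. That of the stimulation experiment (2.04) turned to -0.96 with raw counts of Cxcl3 over Cxcl10. Signs also turned for Cxcr6 with IL-33 (-0.10 by library size alone, -0.088 without the loci high in Control replicate 2, -0.27 on TPM). In the Blimp-1 experiment they turned on TPM for Cxcr3 (0.38 and 0.86), Cxcr6 (1.65 and 1.68), Il1rl1 (1.40 and 1.42) and Zfp36 (0.25 and 0.35), by library size alone for Cxcr6 (0.28) and Il1rl1 (0.077), and without Control replicates 1 and 2 for Cxcr3 (0.31, with -1.30 as the lowest when libraries were left out). There the median over all genes moved from -0.02 to 0.45 by library size alone and to 1.28 and 1.69 on TPM, and with IL-33 it moved from 0.06 to -0.10 by library size alone and to -0.25 and -0.29 on TPM. The causes were not tested.

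Genes called over the whole table ranged from 0 to 1932 higher in the Blimp-1 experiment and from 1027 to 4578 higher with IL-33. Same-numbered libraries correlated at -0.12 to 0.31 with IL-33 and -0.16 to 0.14 in the Blimp-1 experiment, so the numbers were not shown to pair mice. Under the replicate block the IL-33 calls of Ifng (adjusted p = 0.0522), Rsad2 (0.257), Iigp1 (0.0538) and Ifit1 (0.117) were lost, and interferon-response genes called higher went from 6 to 3. Between Blimp-1-deficient and Control cells it ended the calls of Tnf (adjusted p = 0.0691) and Irf9 (0.171). Depth limits Cxcl9 and Cxcl11 in unstimulated and Control libraries, where each value rests on at most 24 counts.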
